A study of Mus musculus with 13 samples.

Results

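The stathmin family of the mouse was measured in motoneurons captured from SOD1-G93A mice, a transgenic model of amyotrophic lateral sclerosis. The family was taken as the rows of the count tables whose Ensembl identifiers carry the symbols Stmn1, Stmn2, Stmn3 and Stmn4 in GENCODE M21, which gave 4 genes of 48709 gene rows. Stmn4 was picked for its lower level in the AAV-miR SOD1 group of these data, and the other members were added for comparison. Differences of the members between the AAV-miR SOD1 group and the controls are therefore given as a description, with no p-value.

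All 13 libraries came from SOD1-G93A mice aged 65 days, so no healthy animals enter any comparison. In the AAV-miR SOD1 group (n = 4) an adeno-associated virus (AAV) had been delivered into the cerebral ventricles on postnatal day 2, with a vector that expresses an artificial microRNA against human SOD1 in astrocytes. The AAV-miR ctrl group (n = 5) had received the control vector in the same way, and littermates of the same genotype without virus formed the non-injected group (n = 4). Each library holds RNA of about 500 motoneurons pooled from 1 mouse by laser capture in stained lumbar sections that still contained the vertebrae, amplified with a low-input kit. The human transgene is the target of the microRNA, and whether its reads were counted with mouse Sod1 is not given in the sources used here.

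Stathmins are small phosphoproteins that bind tubulin dimers, hold them out of the polymer and favour shrinkage of microtubules. Phosphorylation by kinases such as those of the JNK, cyclin-dependent and cyclic AMP pathways weakens this binding. Stmn1 (stathmin, also called oncoprotein 18) is cytosolic and is best known from dividing cells. Stmn2 (SCG10), Stmn3 (SCLIP) and Stmn4 (RB3) are neuronal relatives with an added amino-terminal stretch whose cysteines are palmitoylated, which places the proteins on Golgi and vesicle membranes. Stmn2 is known for its role in axon growth and repair and for its loss in human motoneurons that lack nuclear TDP-43.

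The starts of the coding sequences show this division of the family, and are printed because they carry the feature that separates Stmn1 from the other members. They are the first 30 codons in GENCODE M21 (GRCm38), 5′ to 3′, with in-frame cysteine codons in capitals.
Stmn1: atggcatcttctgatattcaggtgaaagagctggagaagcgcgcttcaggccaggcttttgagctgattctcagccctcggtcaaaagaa
Stmn2: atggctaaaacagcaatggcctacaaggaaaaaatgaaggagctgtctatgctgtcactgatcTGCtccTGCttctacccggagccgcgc
Stmn3: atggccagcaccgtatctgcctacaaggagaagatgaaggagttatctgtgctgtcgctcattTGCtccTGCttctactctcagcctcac
Stmn4: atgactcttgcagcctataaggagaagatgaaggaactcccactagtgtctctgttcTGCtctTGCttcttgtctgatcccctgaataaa
Within these 30 codons, cysteine codons stood at positions 22 and 24 in Stmn2 and Stmn3 and at positions 20 and 22 in Stmn4, counted from the start codon. The Stmn1 coding sequence, with 149 codons the shortest of the 4, held 0 cysteine codons in its whole length, against 2 each in Stmn2 and Stmn3 and 4 in Stmn4. Stmn2 had 179 codons, Stmn3 180 and Stmn4 189.

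The members lie on 4 chromosomes of GRCm38. Stmn1 (ENSMUSG00000028832) spans chr4:134468320-134473843 on the plus strand, and Stmn2 (ENSMUSG00000027500) chr3:8509360-8561606 on the plus strand. Stmn3 (ENSMUSG00000027581) spans chr2:181306459-181314500 on the minus strand, and Stmn4 (ENSMUSG00000022044) chr14:66344296-66361680 on the plus strand. All are protein coding, and their merged exons cover 1922, 5602, 1136 and 1916 bases in the order Stmn1 to Stmn4. Coding sequences of the members were 67.6% to 73.6% identical to each other over their aligned bases, with Stmn2 and Stmn3 the most alike. Pairs with Stmn1 were aligned over 429 to 435 bases and the other pairs over 527 to 537 bases. The longest identical run between members was 43 bases, between Stmn1 and Stmn2, and no stretch of 50 bases occurred in more than 1 member. Of the 50-base stretches of Stmn1, 18.9% also occurred in other genes, mostly in Gm11223, which received 76 counts over all libraries. For Stmn2 the share was 0.893%, and for Stmn3 and Stmn4 it was 0. Reads that aligned to more than 1 place were not counted to a gene, so the shared stretches may lower the Stmn1 counts. The count of Gm11223 does not measure this.

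The libraries held 13.9 to 37.4 megacounts assigned to genes, and 3 counts corresponded to 0.0802 to 0.216 CPM, the unit of counts scaled to library size. The 4 libraries numbered 5 or 6 were all controls and included the deepest, so results are also given for the libraries numbered 1 to 4 where they move. In 2 tables, those of non-injected replicate 3 and of AAV-miR ctrl replicate 3, the column header named another group than the label did. The labels were followed, and values with these libraries exchanged or left out stand beside the results they move. Motoneuron markers were detected in every group, with 0 of 10 at 0, and their summed level ranged from 687 to 1340 CPM in the AAV-miR SOD1 group, 1003 to 3004 CPM in the AAV-miR ctrl group and 1193 to 3092 CPM in the non-injected group. Transcripts of blood-forming cells were present too. Summed erythroid markers (7 of 8 listed genes are in the tables) reached 21055 to 47559 CPM in the AAV-miR SOD1 group, 3573 to 28272 CPM in AAV-miR ctrl and 5587 to 20330 CPM in non-injected. Mouse Sod1 in AAV-miR SOD1 had log2 fold changes of -0.28 ± 0.25 and -0.49 ± 0.26 (SE) relative to AAV-miR ctrl and non-injected, with overlapping groups in both.

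The 4 stathmins fell into an abundant and a scarce pair. Over the 9 control libraries Stmn3 had a median of 1278 CPM per kilobase of merged exons (RPKM; lowest 807, highest 2299). Stmn2 followed at 236 RPKM (lowest 121, highest 404). Stmn4 had a median of 15.8 RPKM (11.5 to 17.7) and Stmn1 of 10.04 RPKM (7.52 to 14.3). On this per-length scale Stmn3 ranked 49 and Stmn2 303 among 17403 tested genes, whereas Stmn4 ranked 3591 and Stmn1 4047. Stmn2 and Stmn3 together made up nearly all stathmin counts. Stmn3 supplied 51.6% to 58.5% of the family's counts in a library and Stmn2 39.3% to 47.0%, against 0.560% to 2.01% for Stmn4 and 0.392% to 2.34% for Stmn1. The family as a whole took 0.111% to 0.493% of the assigned counts.

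The upper part of the order was the same in every library, and the lower part was not. Stmn3 stood above Stmn2, and Stmn2 above both scarce members, in 13 of 13 libraries. Stmn4 stood above Stmn1 in the 9 control libraries and below it in the 4 AAV-miR SOD1 libraries. Because Stmn4 was picked for its lower level in AAV-miR SOD1, this switch restates the choice and is not a separate result. In the AAV-miR SOD1 group the median was 12.8 RPKM for Stmn1 (7.57 to 14.7) and 6.69 RPKM for Stmn4 (4.85 to 9.29). The ranges of Stmn1 and Stmn4 overlapped in each group, and with the length of the longest transcript in place of merged exons Stmn4 stood above Stmn1 in 6 of 13 libraries. The levels were not corrected for the stretches that Stmn1 shares with other genes, so the order of this scarce pair is uncertain. The spread over the 9 controls, as the SD of log2 CPM, was 0.22 for Stmn4 and 0.30 for Stmn1, and wider for Stmn2 (0.55) and Stmn3 (0.50). A choice by group difference can favour a small spread, so the Stmn4 value is not read as a trait of the gene.

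**Figure D1:**
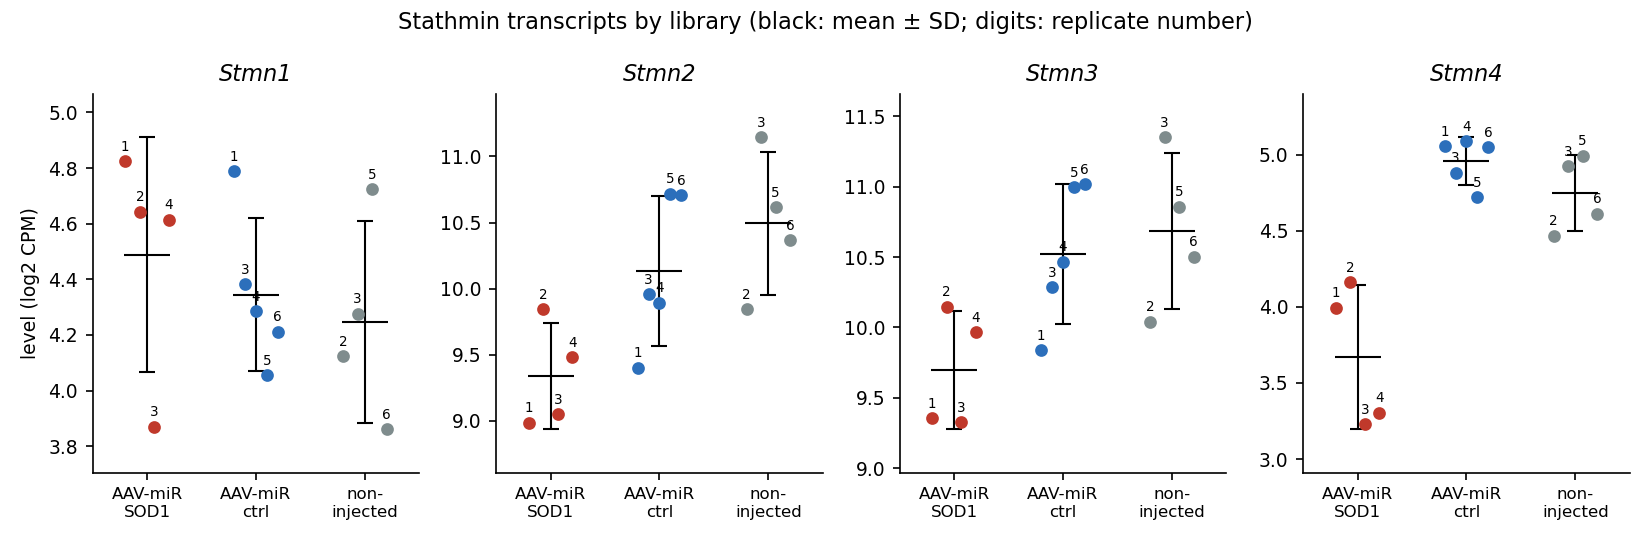
Level of each stathmin (log2 CPM, a separate vertical scale for each gene) in every library of the 3 groups, with digits for replicate numbers and black lines for the mean ± SD. For Stmn4 the AAV-miR SOD1 libraries lie below all 9 controls, whereas for Stmn1 the groups lie over each other.

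Stmn4, the RB3 gene, was at a lower level in the AAV-miR SOD1 group than in every control library. AAV-miR SOD1 replicates 1 to 4 had 15.8, 17.8, 9.29 and 9.80 CPM, from 356, 371, 196 and 155 counts. AAV-miR ctrl replicates 1, 3, 4, 5 and 6 had 33.2, 29.4, 33.9, 26.3 and 33.0 CPM, and non-injected replicates 2, 3, 5 and 6 had 22.1, 30.3, 31.7 and 24.4 CPM. The highest AAV-miR SOD1 library, replicate 2, lay below the lowest control, non-injected replicate 2, so the groups did not overlap, and the controls differed little among themselves. In edgeR's fit the log2 fold change from AAV-miR ctrl was -1.24 ± 0.23 (SE) and from non-injected -1.04 ± 0.24, or 0.424 and 0.487 times the control level. Among all tested genes, 2.46% were lower and 1.27% higher without overlap in the first comparison, and 5.81% and 5.9% in the second. Stmn4 was chosen from this contrast, so nothing is read from its place among those genes. Within the libraries numbered 1 to 4 the values were -1.27 and -0.96.

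Stmn2, the SCG10 gene, was at 506, 919, 529 and 715 CPM in AAV-miR SOD1 replicates 1 to 4. AAV-miR ctrl replicates 1, 3, 4, 5 and 6 had 676, 993, 950, 1684 and 1671 CPM, and non-injected replicates 2, 3, 5 and 6 had 919.9, 2265, 1568 and 1321 CPM. AAV-miR ctrl replicate 1 lay among the AAV-miR SOD1 libraries, and the separation from non-injected was narrow, since AAV-miR SOD1 replicate 2 and non-injected replicate 2 were nearly equal. Relative to AAV-miR ctrl the log2 fold change was -0.84 ± 0.34 (SE), and relative to non-injected -1.19 ± 0.36. The first value was -0.37 within the libraries numbered 1 to 4, where the highest AAV-miR ctrl libraries, replicates 5 and 6, do not enter. The second was -1.23 within those libraries, and -0.85 without both libraries with a contradicting header.

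Stmn3, the SCLIP gene, followed Stmn2 library by library. AAV-miR SOD1 replicates 1 to 4 had 655, 1134, 642 and 999 CPM. AAV-miR ctrl replicates 1, 3, 4, 5 and 6 had 916, 1247, 1415, 2045 and 2071 CPM, and non-injected replicates 2, 3, 5 and 6 had 1054, 2612, 1854 and 1452 CPM. AAV-miR SOD1 replicate 2 exceeded the lowest library of each control group, so the groups overlapped in both comparisons. Relative to AAV-miR ctrl the log2 fold change was -0.84 ± 0.33 (SE), and relative to non-injected -1.02 ± 0.35. Within the libraries numbered 1 to 4 these were -0.46 and -1.07, and without both libraries with a contradicting header they were -0.85 and -0.68.

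Stmn1, the stathmin of dividing cells, had overlapping levels in all 3 groups. AAV-miR SOD1 replicates 1 to 4 had 28.3, 24.9, 14.5 and 24.4 CPM. AAV-miR ctrl replicates 1, 3, 4, 5 and 6 had 27.6, 20.8, 19.4, 16.5 and 18.4 CPM, and non-injected replicates 2, 3, 5 and 6 had 17.3, 19.3, 26.3 and 14.5 CPM. Each group held libraries near the top and near the bottom of the range, and the groups overlapped throughout. Its log2 fold change was 0.16 ± 0.24 (SE) relative to AAV-miR ctrl and 0.25 ± 0.25 relative to non-injected, both within about 1 SE of 0. The median log2 fold change of all 17403 genes was -0.04 and -0.09 in the same order. The comparisons with AAV-miR ctrl and with non-injected use the same 4 AAV-miR SOD1 libraries, so they do not support each other independently.

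**Figure D2:**
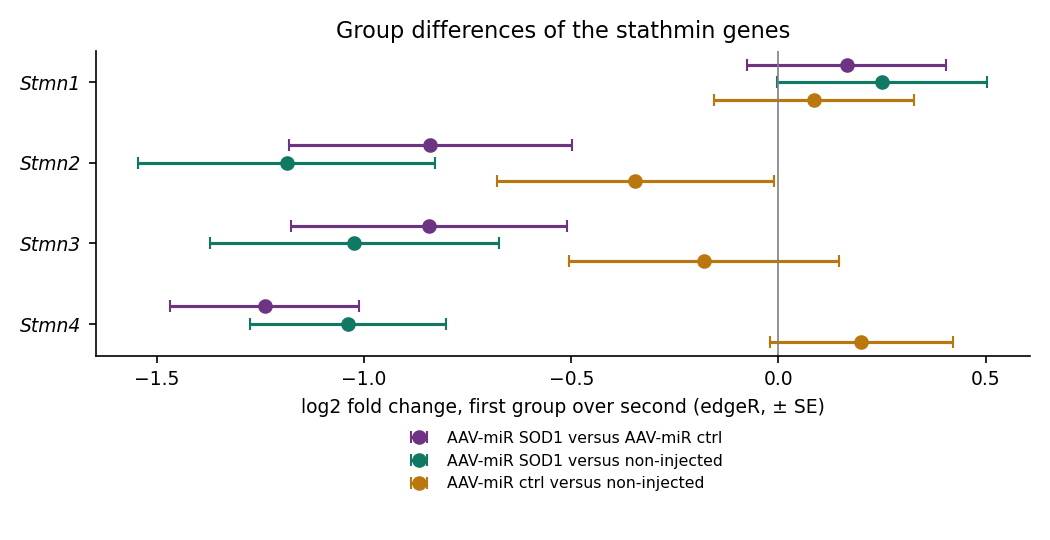
Log2 fold change of each stathmin in the 3 group comparisons (edgeR, points with ± SE), with the first-named group over the second. Stmn2, Stmn3 and Stmn4 lie left of 0 in both comparisons of AAV-miR SOD1, and the values for AAV-miR ctrl over non-injected lie between -0.35 and 0.20.

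The comparison of AAV-miR ctrl with non-injected asks whether virus and injection alone go with a change, and it was not the contrast from which Stmn4 was chosen, although the same control libraries entered that choice. No stathmin passed the threshold in it. The log2 fold change in edgeR's quasi-likelihood test was 0.08 ± 0.24 (SE) for Stmn1, -0.35 ± 0.33 for Stmn2, -0.18 ± 0.33 for Stmn3 and 0.20 ± 0.22 for Stmn4. The Benjamini-Hochberg adjusted p in edgeR's quasi-likelihood test was 1.00 for each of the 4, with unadjusted p of 0.730, 0.318, 0.591 and 0.382. Among all 17403 genes, 0.0% had an adjusted p under 0.05, 3.61% had an unadjusted p under 0.05, and 0.517% were lower and 0.299% higher without overlap, while the control groups overlapped for each member. The signs for Stmn2 and Stmn3 rested on the library labels, since they became 0.27 and 0.37 with the 2 libraries of contradicting headers exchanged.

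In bulk captures of this kind, fewer cells of a type and less RNA per cell cannot be told apart. Several neuronal markers moved with the stathmins. Of 10 motoneuron markers, 7 were lower at an unadjusted p under 0.05 against AAV-miR ctrl and 8 against non-injected in edgeR's quasi-likelihood test, with list medians of -0.92 and -1.18. Among all tested genes 8.54% and 11.5% were lower at that threshold. Summed motoneuron markers were 1003, 1307 and 1359 CPM in AAV-miR ctrl replicates 1, 3 and 4, and 3004 and 2643 CPM in replicates 5 and 6. The AAV-miR SOD1 libraries had 687 to 1340 CPM. Non-injected replicates 2, 3, 5 and 6 had 1193, 3092, 2503 and 2202 CPM. The marker counts were not repeated within the libraries numbered 1 to 4. Chat, the enzyme of acetylcholine synthesis and a defining motoneuron gene, was at -0.83 ± 0.26 and -0.99 ± 0.27 (log2 fold change, SE) in these comparisons. Summed general neuronal markers ranged from 5955 to 9820 CPM in AAV-miR SOD1, 8555 to 20529 CPM in AAV-miR ctrl and 8770 to 21771 CPM in non-injected. The part of these markers in the stathmin differences was not tested.

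Set against Chat of the same library, the abundant stathmins differed less between groups than they did in CPM. Stmn3 minus Chat, in log2 CPM, averaged 3.95 ± 0.13 (SD, n = 4) in AAV-miR SOD1, 3.96 ± 0.20 (SD, n = 5) in AAV-miR ctrl and 3.96 ± 0.25 (SD, n = 4) in non-injected. Stmn2 minus Chat averaged 3.596 ± 0.20, 3.57 ± 0.26 and 3.76 ± 0.22 in the same order. Over all 13 libraries the SD of these differences was 0.18 for Stmn3 and 0.23 for Stmn2, against 0.63 and 0.67 for the log2 CPM themselves. Relative to Chat, Stmn3 had nearly equal group means, and the non-injected mean of Stmn2 was the highest of its 3 by less than 1 SD.

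The scarce members varied more against Chat. Stmn4 minus Chat was -1.58, -1.90, -2.06 and -2.74 in AAV-miR SOD1 replicates 1 to 4. It was -1.17, -1.33, -1.36, -2.31 and -1.86 in AAV-miR ctrl replicates 1, 3, 4, 5 and 6, and -1.91, -2.35, -1.63 and -2.04 in non-injected replicates 2, 3, 5 and 6. On this scale the Stmn4 groups overlapped, with means of -2.07 ± 0.49 (SD, n = 4), -1.61 ± 0.47 (SD, n = 5) and -1.98 ± 0.30 (SD, n = 4). The AAV-miR SOD1 mean lay 1 SD or less from both control means. In log2 CPM itself the SD of Stmn4 was smaller, 0.16 in AAV-miR ctrl and 0.25 in non-injected. Over the 9 controls Stmn4 had r = 0.01 with Chat, so subtracting Chat added spread to Stmn4. The overlap is therefore not read as a Stmn4 difference accounted for by Chat. Stmn1 minus Chat averaged -1.26 ± 0.34 (SD, n = 4) in AAV-miR SOD1, -2.22 ± 0.63 (SD, n = 5) in AAV-miR ctrl and -2.48 ± 0.50 (SD, n = 4) in non-injected. Chat itself was lower without overlap in both comparisons while Stmn1 overlapped, and this difference is not read as a change of Stmn1.

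**Figure D3:**
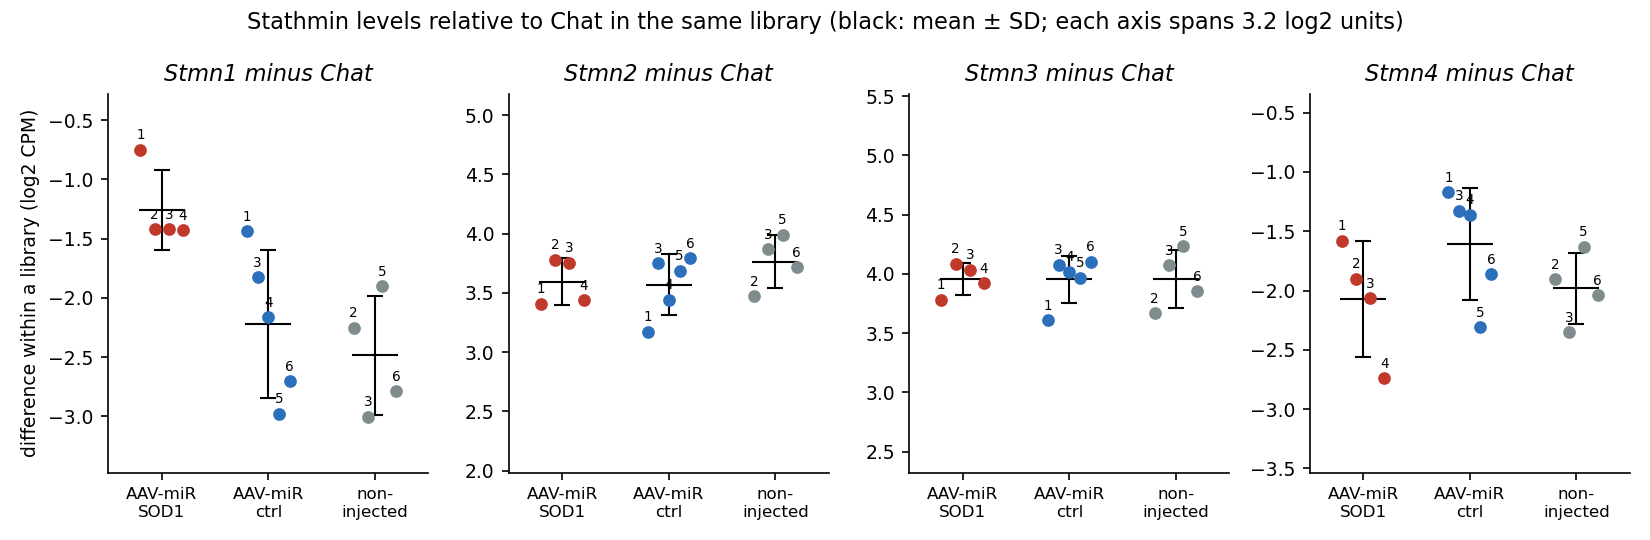
Stathmin level minus the level of Chat in the same library (log2 CPM), by group, with replicate numbers and the mean ± SD in black, and vertical axes of equal span. The Stmn3 means lie at 3.95 to 3.96, the Stmn2 means at 3.57 to 3.76, the groups of Stmn4 overlap, and the AAV-miR SOD1 libraries lie highest for Stmn1, where Chat itself is lower.

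Markers of other cells differed between the groups in both directions. All 8 dividing cell markers were higher in AAV-miR SOD1 at an unadjusted p under 0.05 in both comparisons (edgeR's quasi-likelihood test, list medians 1.09 and 1.29, 0 past the adjusted threshold). Of all tested genes, 5.99% were higher at that threshold against AAV-miR ctrl and 9.36% against non-injected. Their summed level was 485 to 1164 CPM in AAV-miR SOD1, 278 to 650 CPM in AAV-miR ctrl and 230 to 468 CPM in non-injected. Of 7 erythroid markers tested, 7 were higher at an unadjusted p under 0.05 in both comparisons, with list medians of 1.37 and 1.77. Their sums were 28272, 16973 and 12332 CPM in AAV-miR ctrl replicates 1, 3 and 4, and 3573 and 8620 CPM in replicates 5 and 6. Non-injected replicates 2, 3, 5 and 6 had 20330, 5587, 7944 and 6019 CPM. Summed neutrophil granule markers ranged from 28466 to 77393 CPM in AAV-miR SOD1, 9969 to 66156 CPM in AAV-miR ctrl and 14243 to 23131 CPM in non-injected. Summed microglia markers ranged from 760 to 1015 CPM, 437 to 1207 CPM and 265 to 662 CPM in the same order, and astrocyte markers from 459 to 575 CPM, 568 to 1011 CPM and 540 to 782 CPM. Summed oligodendrocyte markers ranged from 1199 to 2761 CPM, 1146 to 4555 CPM and 1838 to 2822 CPM. Medians of the astrocyte and oligodendrocyte sums were lowest in AAV-miR SOD1, at 506 and 1816 CPM, against 798 and 3241 CPM in AAV-miR ctrl and 589 and 2648 CPM in non-injected. The part of these markers in the Stmn1 level was not tested.

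How the members varied together was tested over the 9 control libraries alone, which the choice of Stmn4 did not set apart. Stmn2 and Stmn3 rose and fell together, with Pearson r = 0.97 (two-sided exact permutation p = 8.27e-05, adjusted p = 0.000496 over 6 pairs, n = 9). Spearman rho was 0.97 (exact permutation p = 0.000165, adjusted p = 0.000992), and r was 0.93 without the 2 libraries farthest from the Stmn2 median. Stmn3 minus Stmn2 averaged 0.32 ± 0.12 (SD, n = 13) in log2 CPM. This difference was 0.36 ± 0.09 (SD, n = 4) in AAV-miR SOD1, 0.39 ± 0.12 (SD, n = 5) in AAV-miR ctrl and 0.19 ± 0.04 (SD, n = 4) in non-injected. All 4 non-injected libraries (0.14 to 0.24) lay below all 9 injected ones (0.28 to 0.57), a separation that was seen in the data and not tested. The separation is lost if the 2 libraries with contradicting headers are exchanged. The value 0.33, labelled AAV-miR ctrl, then joins the non-injected values, and 0.21, labelled non-injected, joins the injected ones. With both of these libraries left out, the ranges stay as given. The libraries numbered 1 to 4 (5 controls) and those numbered 5 or 6 (4 controls) were too few for a correlation within each.

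No relation of Stmn4 to its abundant relatives passed the test. Its r was 0.00 with Stmn2 (exact permutation p = 0.998, n = 9) and 0.19 with Stmn3 (exact permutation p = 0.625, adjusted p = 0.750, n = 9). Without the 2 farthest libraries these were 0.22 and 0.50, and leaving out each library in turn gave -0.15 to 0.48 with Stmn3, so 9 libraries set these values only loosely. Stmn4 and Stmn1 had r = 0.66 (exact permutation p = 0.0561, adjusted p = 0.168, n = 9) and rho = 0.68 (exact permutation p = 0.0503), which did not pass the adjusted threshold, and r was 0.65 without the 2 farthest libraries. Stmn1 had r = -0.33 with Stmn2 (exact permutation p = 0.388, adjusted p = 0.750, n = 9) and -0.25 with Stmn3 (exact permutation p = 0.509, adjusted p = 0.750, n = 9). Both negative values rested on AAV-miR ctrl replicate 1, and became 0.065 and 0.15 without it. Of 6 pairs, only Stmn2 with Stmn3 passed with TMM scaling. Stmn1 with Stmn4 passed too with total counts as the only scaling (r = 0.78, exact permutation adjusted p = 0.0464). Over all 13 libraries as deviations from group means its r was 0.65. That setting includes the AAV-miR SOD1 libraries, and its permutation made no allowance for the group means removed, so no p is read from it.

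**Figure D4:**
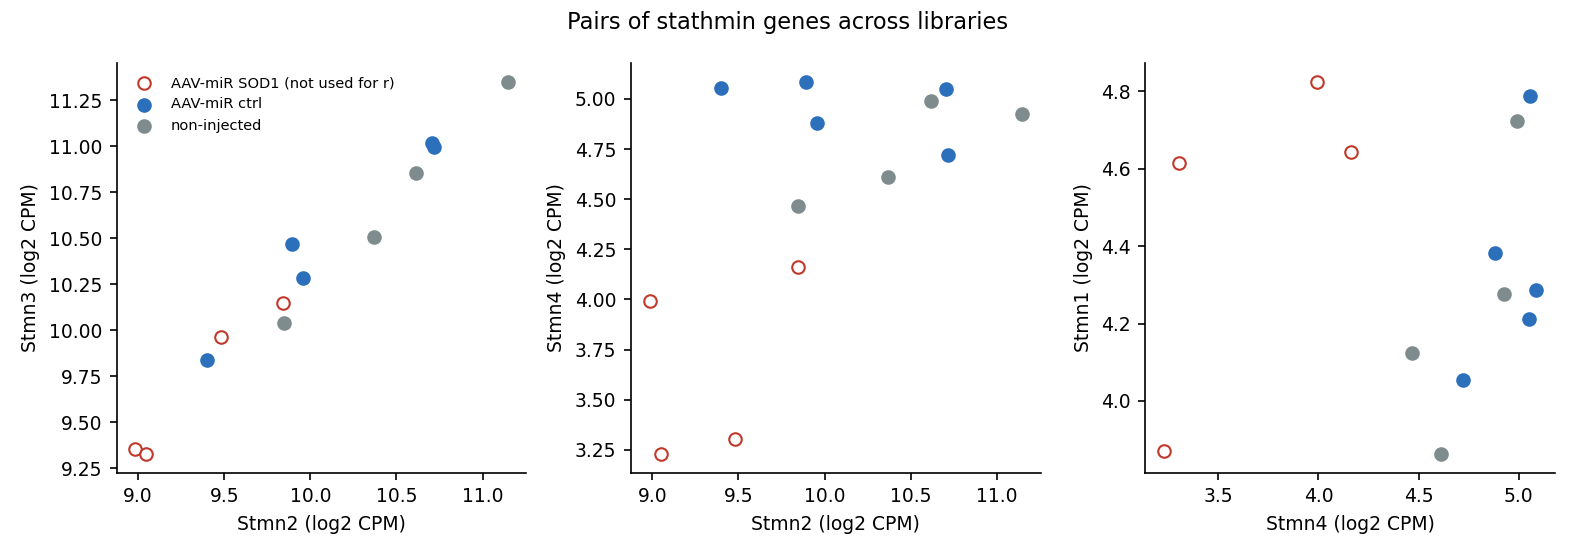
Levels (log2 CPM) of 3 pairs of stathmins, 1 point per library, with filled points for the 9 controls and open points for AAV-miR SOD1. Stmn2 and Stmn3 lie along a line (r = 0.97 over the controls), Stmn4 shows no relation to Stmn2 among the controls (r = 0.00), and the Stmn4 and Stmn1 values of the controls have r = 0.66.

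The genes whose levels were most like each member over the 9 controls were taken from 11883 other genes with a mean of at least 5 CPM, as a description. For Stmn2 they were Clip3, Ccl2, Rufy3, Resp18 and Rab3c (Pearson r = 0.99 each), and for Stmn3 Fgf9 (r = 1.00), Gm17018, Trappc4, Vamp1 and Gabarapl1 (r = 0.99 each). Stmn3 itself had 36 genes ahead of it in the ranking for Stmn2. Chat had r = 0.93 with each of Stmn2 and Stmn3, and Gap43, a growth-cone protein, had 0.90 and 0.86. Many genes varied with this pair, and the points of each correlation share a library. The part of neuronal RNA content, depth or library numbering in these correlations was not tested.

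The scarce members had other neighbours in this ranking. For Stmn1 the leading genes were Hells (r = 0.95), a chromatin remodeller of dividing cells, Nudt16l1 (0.94), Ovca2 (0.93), Atp8b4 (0.92) and Rcc2 (0.92). For Stmn4 they were Fam193a (r = 0.94), Ncoa6 (0.91), Smg8 (0.90), Rab13 (0.87) and Dnajc16 (0.85), while Chat had r = 0.01 and Gap43 -0.14. Stmn1 stood behind 140 genes in the ranking for Stmn4. Over all 13 libraries, where the choice of Stmn4 enters, the list was Dbndd2 (0.88), Lbhd2 (0.87), Clgn (0.85), Pcdhb9 (0.85) and Zscan18 (0.84), with Gap43 at 0.80 and Chat at 0.73. The 5 genes nearest to Stmn4 thus differed between the 9 controls and all 13 libraries.

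The other genes of microtubule regulation were followed in 8 lists of 106 genes, of which 105 were tested and Dcx was not. In AAV-miR SOD1 against AAV-miR ctrl, 0 of 105 passed the adjusted threshold of 0.05 by edgeR's quasi-likelihood test, as did 0.0% of all genes. At an unadjusted p under 0.05, 31 were lower and 9 higher, where 14.5% of all genes passed (8.54% lower and 5.99% higher). Against non-injected 0 of 105 passed (0.0% of all genes), and 39 were lower and 9 higher at an unadjusted p under 0.05, beside 20.9% of all genes (11.5% lower and 9.36% higher). The list medians were -0.25 and -0.38, against -0.04 and -0.09 over all genes. The 40 genes of the first comparison became 8 within the libraries numbered 1 to 4 and 16 without AAV-miR SOD1 replicate 1. The 48 of the second became 18 without both libraries with a contradicting header and 28 without non-injected replicate 3. In AAV-miR ctrl against non-injected, 0 of 105 passed, and 6 were lower and 0 higher at an unadjusted p under 0.05 (2.24% and 1.38% of all genes).

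By the smallest p, the leading genes against AAV-miR ctrl were Gap43 (log2 fold change -1.25 ± 0.30, SE), the mitotic kinase Cdk1 (1.14 ± 0.27) and the axonal microtubule protein Mapt, or tau (-0.95 ± 0.24), each with an adjusted p of 0.256 in edgeR's quasi-likelihood test. Against non-injected they were Gap43 (-1.49 ± 0.31), the semaphorin signalling protein Crmp1 (-1.54 ± 0.35) and Cdk1 (1.26 ± 0.29), each with an adjusted p of 0.140. Cdk1 phosphorylates stathmin in mitosis and also belongs to the dividing cell markers described above. Between the control groups the leading genes were Prkaca (-0.82 ± 0.21), a catalytic subunit of protein kinase A, Map7d1 (-0.73 ± 0.22) and Basp1 (-0.997 ± 0.32), with an adjusted p of 1.00 in edgeR's quasi-likelihood test. Examples named in the next paragraphs beyond these were picked after their values were seen, and none of them passed the adjusted threshold in edgeR's test. Some of them passed in DESeq2, as given with the alternatives below.

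Tubulins, the partners that stathmins bind, had 5 of 15 members lower and 1 higher at an unadjusted p under 0.05 against AAV-miR ctrl, with a list median of -0.41. The neuronal isotypes Tubb3 (log2 fold change -1.08 ± 0.43, SE), Tubb4a (-1.26 ± 0.37) and Tubb2a (-1.05 ± 0.36) were among the lower ones. Tuba1c (0.99 ± 0.37) was the higher one, and the widely expressed Tubb5 (-0.11 ± 0.23) and Tuba1b (-0.10 ± 0.18) stood near 0. So did Tuba4a (-0.07 ± 0.23), the tubulin with the highest mean level of the list (1098 CPM). Against non-injected 5 were lower and 2 higher, with a median of -0.44. The shares of all tested genes at the unadjusted threshold were 8.54% lower and 5.99% higher against AAV-miR ctrl. Against non-injected they were 11.5% and 9.36%, and the same shares apply to the lists that follow. Microtubule-associated proteins had 8 of 16 tested members lower and 0 higher against AAV-miR ctrl (median -0.50), and 10 lower and 0 higher against non-injected (median -0.65). Besides Mapt, the lower ones in both comparisons included Map1b (-0.65 ± 0.29 and -0.83 ± 0.31) and Map6 (-0.74 ± 0.32 and -1.05 ± 0.34), while the dendritic Map2 did not pass (-0.24 ± 0.22 and -0.40 ± 0.23).

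Proteins that act on microtubule ends or sever them were split, with 3 lower and 3 higher of 18 in each comparison and medians of -0.01 and -0.19. Mapre3, a plus-end protein, was lower (-0.96 ± 0.34 and -1.05 ± 0.35, SE), and Kif18a (1.17 ± 0.31 and 0.99 ± 0.33) and Kif2c (1.05 ± 0.47 and 1.11 ± 0.50), kinesins of the mitotic spindle, were higher. The list of stathmin kinases and their upstream kinases, which also holds the JNK scaffolds Mapk8ip1 and Mapk8ip3, the Cdk5 activator Cdk5r1 and the GTPase Rac1, had 6 lower and 2 higher of 23 against AAV-miR ctrl (median -0.25) and 9 lower and 1 higher against non-injected (median -0.45). Both scaffolds were among the lower genes in each comparison, and Rac1 was among the higher ones against AAV-miR ctrl (1.39 ± 0.63, SE). The lower ones in both comparisons included Mapk10, the neuronal JNK (-0.94 ± 0.32 and -0.94 ± 0.33), and Cdk5 (-0.83 ± 0.25 and -0.98 ± 0.27). The ubiquitous JNK gene Mapk8 did not pass (-0.15 ± 0.27 and -0.08 ± 0.28).

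Palmitoylating enzymes of stathmins had 0 of 4 past an unadjusted p under 0.05 in both comparisons, with medians of -0.04 and -0.28. Genes of axon survival and degeneration had 2 lower and 3 higher of 11 against AAV-miR ctrl (median 0.07) and 4 lower and 2 higher against non-injected (median -0.21). Nmnat2, the axon survival enzyme, was lower (-0.59 ± 0.27 and -0.70 ± 0.29, SE). Its mitochondrial relative Nmnat3, with the smallest p of the list against AAV-miR ctrl, was at 0.79 ± 0.21 and 0.45 ± 0.22 and higher without overlap in both comparisons, though the second missed the unadjusted threshold. Of all tested genes, 1.27% and 5.9% were higher without overlap in these comparisons. Known regulators of stathmin expression had 0 of 6 past the unadjusted threshold against AAV-miR ctrl (median 0.30) and 1 higher against non-injected (median 0.38). Tardbp, the TDP-43 gene, was at 0.05 ± 0.15 and 0.21 ± 0.16, and Rest, a repressor of neuronal genes, at 0.58 ± 0.32 and 0.59 ± 0.34. The link of TDP-43 to Stmn2 named above is from human motoneurons, and whether it holds for the mouse gene was not tested. Growth-associated proteins had 7 lower and 0 higher of 12 against AAV-miR ctrl (median -0.83) and 8 lower and 0 higher against non-injected (median -0.80). Dpysl2 (-0.84 ± 0.26 and -0.85 ± 0.27) was among them, whereas Marcks (0.58 ± 0.35 and 0.72 ± 0.38) did not pass.

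**Figure D5:**
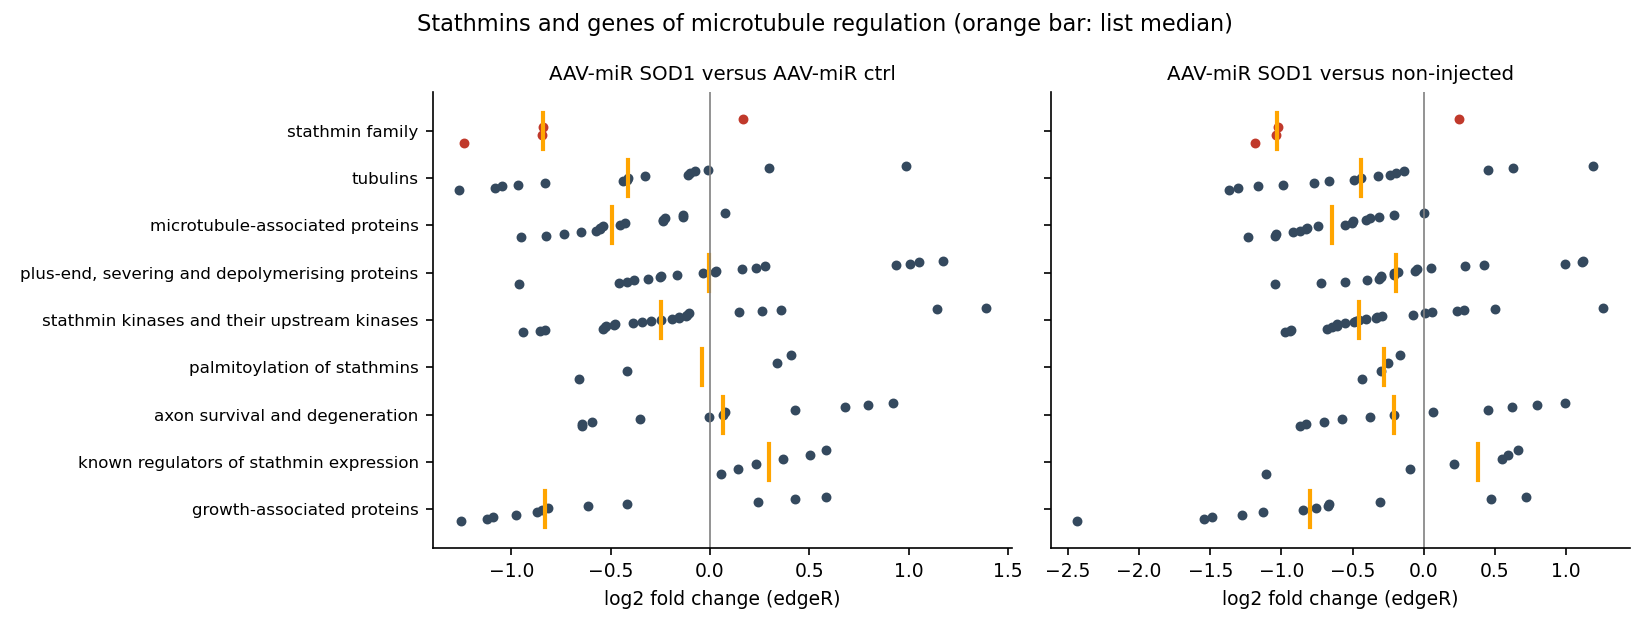
Log2 fold change of the 4 stathmins (red) and of 105 tested genes of 8 microtubule lists (dark points), with the list median as an orange bar, for AAV-miR SOD1 over AAV-miR ctrl and over non-injected. Medians of growth-associated proteins (-0.83 and -0.80) and of microtubule-associated proteins (-0.50 and -0.65) lie left of 0, and that of known regulators (0.30 and 0.38) lies right of 0.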

How the data were processed

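RNA-seq counts of 13 laser-captured motoneuron libraries were analysed. The authors deposited raw read counts per gene, 1 table per library, with 5 summary rows (47.0% to 61.6% of the counts in a table) left out here. Per the submitters' processing notes, cutadapt 1.8, STAR 2.5.2b, HTSeq 0.6.1 and the GRCm38 build were used; the annotation and strand setting are not given in the sources used here. Symbols, lengths and sequences came from GENCODE M21 (48349 identifiers matched).

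Members and lists were chosen with earlier results of these data known. In edgeR 4.0.16 (R 4.3.3), genes were kept by filterByExpr (17403 tested), scaled by TMM and fitted by quasi-likelihood on all 13 libraries with 3 group levels. Standard errors are the log2 fold change over the root of F, and p-values were adjusted by Benjamini-Hochberg (threshold 0.05). Log2 CPM used a prior count of 2. RPKM used merged exon length. Correlations were tested by exact permutation. Each library is 1 mouse, per the labels' protocols.

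Named genes were the members, Gap43, Chat and Sod1, the 5 genes most alike to each member, and pathway genes past the adjusted threshold or, where fewer than 3 passed, the 3 with the smallest p. On simulated counts for AAV-miR SOD1 against AAV-miR ctrl (16957 genes), edgeR recovered 9.38% of 64 genes changed by 1 log2 unit, 61.3% of 62 changed by 2 and 80.3% of 66 changed by 4, with 3 false calls. Alternatives were other scalings and filters, DESeq2 1.42.0, limma-voom with quality weights (limma 3.58.1), groups alone, a replicate block, exchange or removal of libraries with contradicting headers, the libraries numbered 1 to 4, and leaving out each library.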

Additional observations from a re-analysis of the deposited data

Results flagged for a closer look

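In 36 groups of 4 or 5 values (members, and differences between members or from Chat), 2 held a value well apart from the rest of the group, where chance alone gives about 1.8. Stmn1 minus Chat in AAV-miR SOD1 replicate 1 was -0.75 log2 units, while the other AAV-miR SOD1 libraries lay between -1.43 and -1.42. Stmn3 minus Chat in AAV-miR ctrl replicate 1 was 3.61 log2 units, while the other AAV-miR ctrl libraries lay between 3.97 and 4.10.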

How the results depend on the processing

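Under 25 alternatives the log2 fold changes of the members in both AAV-miR SOD1 comparisons kept their sign. Against AAV-miR ctrl Stmn4 ranged from -1.41 to -1.05, Stmn2 from -1.12 to -0.37, Stmn3 from -1.08 to -0.46 and Stmn1 from 0.04 to 0.39. Against non-injected the ranges were -1.19 to -0.83, -1.36 to -0.78, -1.17 to -0.68 and 0.06 to 0.49 in the same order.

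Same-numbered libraries did not deviate together (r of -0.19 to 0.24 over 8 pairs, 3 over 0.1, and 3 of 13 libraries closest to their own number), so the numbers were not taken as pairs. With the replicate block Stmn4 was at -1.32 and -1.12, Stmn2 at -0.56 and -0.78, Stmn3 at -0.62 and -0.72 and Stmn1 at 0.08 and 0.06, against AAV-miR ctrl and non-injected. The block turned Stmn1 in AAV-miR ctrl against non-injected to -0.022, and moved the pathway genes at an unadjusted p under 0.05 from 40 to 17 and from 48 to 15, and all such genes from 2529 to 1535 and from 3635 to 1441.

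DESeq2 called 5 pathway genes (173 genes in all) against AAV-miR ctrl, 12 (996 in all) against non-injected and 2 genes in all between the controls, where edgeR called 0. The 5 were Gap43 and Mapt, lower, and Cdk1, Kif18a and Nmnat3, higher. Of the 12, Cdk1 and Tuba1c were higher and the rest lower, with Cdk5, Tubb2a and Tubb4a among the lower ones. Within the libraries numbered 1 to 4, 891 genes had an unadjusted p under 0.05 against AAV-miR ctrl.

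Between the controls, exchange of the 2 libraries with contradicting headers turned Stmn2 to 0.27 and Stmn3 to 0.37, and their removal turned Stmn3 to 0.17. Leaving out each library gave -0.043 to 0.29 for Stmn1, -0.52 to -0.09 for Stmn2 and -0.35 to 0.082 for Stmn3. Stmn4 stayed at 0.13 to 0.31 over all alternatives. Correlations left out in turn ran from -0.54 to 0.065 (Stmn1 with Stmn2), -0.43 to 0.15 (Stmn1 with Stmn3), 0.56 to 0.73 (Stmn1 with Stmn4), -0.30 to 0.26 (Stmn2 with Stmn4) and -0.15 to 0.48 (Stmn3 with Stmn4). Stmn2 with Stmn4 was -0.051 with edgeR's RLE scaling in place of TMM. Stmn1 with Stmn4 passed with total counts only (r = 0.78, exact permutation adjusted p = 0.0464). It had r = 0.65 over all 13 libraries as deviations from group means, where the permutation made no allowance for the means removed. Stmn2 with Stmn3 stayed at 0.96 to 0.99. The cause of these moves was not tested. Depth was ample for Stmn2 and Stmn3, while Stmn4 rested on 155 to 1271 counts a library.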
